A study of Mus musculus with 16 samples.

Results

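The 8 genes described here, Ucp1, Cidea, Ppargc1a, Dio2, Cox7a1, Cox8b, Elovl3 and Prdm16, are marks of brown and beige fat, the fat that burns fuel to make heat. They were chosen by symbol, as the probe sets whose single gene symbol is one of these 8. That gave 17 probe sets out of 45101 on the array, and 8 genes out of 18193 tested. RNA of the whole thoracic mammary gland was hybridised to 16 Affymetrix mouse arrays, 4 for each of 4 groups. The groups were isolated mice at 20 weeks, grouped mice at 20 weeks, isolated mice at 15 weeks and grouped mice at 15 weeks. Isolated mice lived 1 to a cage after weaning and grouped mice lived with other females.

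Every group, the grouped controls included, was made of FVB/N females that were homozygous for a transgene of the SV40 large T antigen. The transgene is driven by a C3(1) fragment of a rat prostatic steroid binding protein promoter, and such mice develop mammary tumours. Mice were weaned at 21 days and were split so that behaviour in an open-field test was balanced over the housings. All were killed 6 h into the dark phase and in estrus. No label states that every array had a mouse of its own, and p-values therefore speak only of the spread among these arrays, which may be technical. They also do not say whether a gland held tumour or how it was parted from adjoining fat and muscle.

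Brown and beige adipocytes burn fatty acids in their mitochondria and release the energy as heat. The protein made from Ucp1 does this by letting protons back across the inner mitochondrial membrane without making ATP. Cold acts on these cells through sympathetic nerves, cyclic AMP and thyroid hormone, and housing with cage mates lowers heat loss. The mouse mammary gland is embedded in a subcutaneous fat pad that can hold beige adipocytes, and depots of brown fat lie in the axillary and shoulder region near the thoracic glands.

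The values are log2 expression levels, so a difference of 1 is a doubling. The overall level of the arrays shifted with age. The array medians lay 0.22 higher at 20 than at 15 weeks in isolated mice and 0.23 higher in grouped mice. Age and array run cannot be told apart, and differences between ages were tested after each array was centred on its own median. The difference between the 3' and the 5' control probe sets of Gapdh, a sign of RNA quality, averaged -0.02 ± 0.03 in isolated and -0.01 ± 0.03 in grouped mice at 20 weeks, and -0.01 ± 0.02 in isolated and -0.06 ± 0.02 in grouped mice at 15 weeks (SD, n = 4 arrays each). As a check of the labelled tissue, the mean of 10 luminal epithelial markers ranged over 11.20 to 11.52 in isolated and 11.42 to 11.61 in grouped mice at 20 weeks, and over 11.23 to 11.33 in isolated and 11.13 to 11.32 in grouped mice at 15 weeks. Levels of different genes are not compared, because probe sets differ in brightness.

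At 15 weeks Ucp1, Cidea, Cox7a1 and Cox8b were bright and nearly the same in all arrays, spanning 1.14-fold to 1.30-fold, and Elovl3 was bright and spanned 1.60-fold. At most 4.60% of the probe sets of an array lay above any of these 5 at that age. Ppargc1a, Dio2 and Prdm16 were of middling or low brightness, with 31.4% to 62.0% of probe sets above them, and spanned 1.69-fold, 1.22-fold and 1.11-fold. At 20 weeks the 5 bright genes differed widely from array to array, and they did so together. No member differed between isolated and grouped mice by the test at either age. The genes of thermogenic output are described first, then the regulators.

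Ucp1, which encodes the uncoupling protein itself, read 8.74, 12.24, 12.81 and 13.65 (log2, replicates 1 to 4) in isolated mice at 20 weeks, against 11.73, 12.32, 13.01 and 12.40 in grouped mice at 20 weeks. It read 13.30, 13.33, 13.42 and 13.44 in isolated mice at 15 weeks, against 13.53, 13.48, 13.46 and 13.31 in grouped mice at 15 weeks. Among the 8 arrays of 20 weeks, isolated replicate 1 was the lowest and isolated replicate 4 the highest. The isolated arrays thus reached past the grouped ones on both sides. The 8 arrays of 20 weeks spanned 4.91 on the log2 scale, or 30.0-fold, while the 8 arrays of 15 weeks spanned 0.23, or 1.18-fold. The group means were 11.86 ± 2.16 in isolated and 12.36 ± 0.52 in grouped mice at 20 weeks, and 13.37 ± 0.07 in isolated and 13.45 ± 0.09 in grouped mice at 15 weeks (SD, n = 4 each).

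The narrow range at 15 weeks was set beside that of other bright probe sets. Between 0.450% and 0.772% of the probe sets of an array lay above Ucp1 at 15 weeks. Over the 1% of probe sets with the highest mean at that age, 452 in number, the median span of the 8 arrays was 0.34, against 0.31 over all probe sets. The highest value at 15 weeks was 14.75. The median span of the bright probe sets was thus not below that of all probe sets. Ucp1 itself spanned 0.23, less than either median. Whether its probe set was near the top of its readable range was not tested.

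The spread of Ucp1 in isolated mice at 20 weeks was the widest of all genes. Its SD of 2.16 stood at percentile 100 among 18193 genes, whose median SD in that group was 0.113. In grouped mice at 20 weeks its SD of 0.52 stood at percentile 98.9, against a median of 0.0938. At 15 weeks Ucp1 was an ordinary gene by this measure, at percentile 43.5 in isolated and 39.8 in grouped mice.

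The 250 bases before the start of 3 members are printed. Ucp1 and Cox8b moved together over the 20-week arrays (r = 0.97). Dio2 at its brightest probe set, described further on, ran less closely with them (r = 0.43 and 0.46). The bases are taken from RefSeq (GRCm38.p6), from which windows of 6 of the 8 members were read. Capitals mark matches on either strand to any of 7 motifs: the nuclear receptor core AGGTCA, its repeat AGGTCANAGGTCA, the estrogen-related receptor site TCAAGGTCA, the cyclic AMP response element TGACGTCA, its core TGACG, the TATA box TATAAA and the E-box CACGTG. Each line starts upstream and runs 5′ to 3′ on the strand of the gene. Ucp1 lies at chr8:83290098-83290347 on the plus strand, Cox8b at chr7:140900447-140900696 on the minus strand and Dio2 at chr12:90739039-90739288 on the minus strand.
Ucp1: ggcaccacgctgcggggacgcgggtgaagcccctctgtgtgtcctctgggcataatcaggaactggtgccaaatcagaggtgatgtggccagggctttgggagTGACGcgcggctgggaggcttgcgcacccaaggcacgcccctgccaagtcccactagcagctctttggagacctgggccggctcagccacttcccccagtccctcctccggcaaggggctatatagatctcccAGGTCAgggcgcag
Cox8b: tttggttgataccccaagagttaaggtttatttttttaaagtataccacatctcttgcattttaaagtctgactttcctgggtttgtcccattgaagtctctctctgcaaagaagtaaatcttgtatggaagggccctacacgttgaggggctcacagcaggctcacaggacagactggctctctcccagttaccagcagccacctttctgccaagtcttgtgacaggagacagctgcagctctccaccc
Dio2: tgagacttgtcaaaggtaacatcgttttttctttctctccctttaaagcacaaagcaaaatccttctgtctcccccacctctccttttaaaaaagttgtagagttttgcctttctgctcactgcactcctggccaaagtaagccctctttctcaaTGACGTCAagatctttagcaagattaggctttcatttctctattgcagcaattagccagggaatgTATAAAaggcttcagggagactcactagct
The Ucp1 window held 1 match to TGACG and 1 to AGGTCA. The Cox8b window held no match to these letters. The Dio2 window held 1 match to TGACGTCA, within which TGACG is matched on both strands, and 1 to TATAAA. Of 32851 RefSeq windows of the same length, 14% held AGGTCA, 0.0335% held AGGTCANAGGTCA, 0.387% held TCAAGGTCA, 1.55% held TGACGTCA, 17.8% held TGACG, 12.4% held TATAAA and 6.02% held CACGTG. A match describes the letters in the window and is not a measured binding site.

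Cidea encodes a protein of the lipid droplet that is plentiful in brown fat and is also made by milk-secreting mammary epithelium. It read 8.79, 11.13, 12.03 and 13.15 in isolated mice at 20 weeks, against 11.39, 12.47, 12.89 and 12.19 in grouped mice at 20 weeks. All 8 arrays of 15 weeks lay between 13.11 and 13.30, with means of 13.18 ± 0.06 in isolated and 13.22 ± 0.06 in grouped mice (SD, n = 4 each). As for Ucp1, isolated replicate 1 was the lowest and isolated replicate 4 the highest at 20 weeks, and the housings overlapped. The span at 20 weeks was 4.36, or 20.5-fold, against 0.19, or 1.14-fold, at 15 weeks.

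Cox7a1 and Cox8b encode subunits of cytochrome c oxidase in the forms used by heart, skeletal muscle and brown fat. Cox7a1 read 9.22, 10.84, 11.52 and 12.02 in isolated mice at 20 weeks, against 10.63, 11.61, 11.75 and 11.58 in grouped mice at 20 weeks. At 15 weeks Cox7a1 lay between 11.95 and 12.18 in isolated and between 11.94 and 12.32 in grouped mice. Isolated replicate 1 was again lowest and isolated replicate 4 highest at 20 weeks, a span of 6.98-fold. Cox8b read 10.51, 11.97, 12.61 and 13.08 in isolated mice at 20 weeks, against 12.14, 12.64, 12.93 and 12.59 in grouped mice at 20 weeks. At 15 weeks Cox8b lay between 13.22 and 13.41 in isolated and between 13.28 and 13.51 in grouped mice. Its arrays stood in much the same order as those of Cox7a1, and its span at 20 weeks was 5.94-fold, against 1.22-fold at 15 weeks.

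Elovl3 encodes an elongase of very long chain fatty acids, active in brown fat exposed to cold and in sebaceous glands. It read 8.77, 10.21, 10.42 and 11.70 in isolated mice at 20 weeks, against 9.80, 9.77, 11.22 and 10.55 in grouped mice at 20 weeks. The 8 arrays of 20 weeks lay below those of 15 weeks with 1 exception, isolated replicate 4, which at 11.70 stood among them. The 15-week values were 11.93, 11.89, 12.14 and 11.94 in isolated mice, against 11.46, 12.08, 12.08 and 11.71 in grouped mice. The span at 20 weeks was 2.92, or 7.59-fold. The mean of 7 measured sebaceous gland and hair follicle genes ranged over 7.33 to 8.25 in isolated and 7.42 to 7.47 in grouped mice at 20 weeks. Its highest array was isolated replicate 3, which was not the highest for Elovl3, and the part of skin glands in Elovl3 was not tested.

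**Figure D1:**
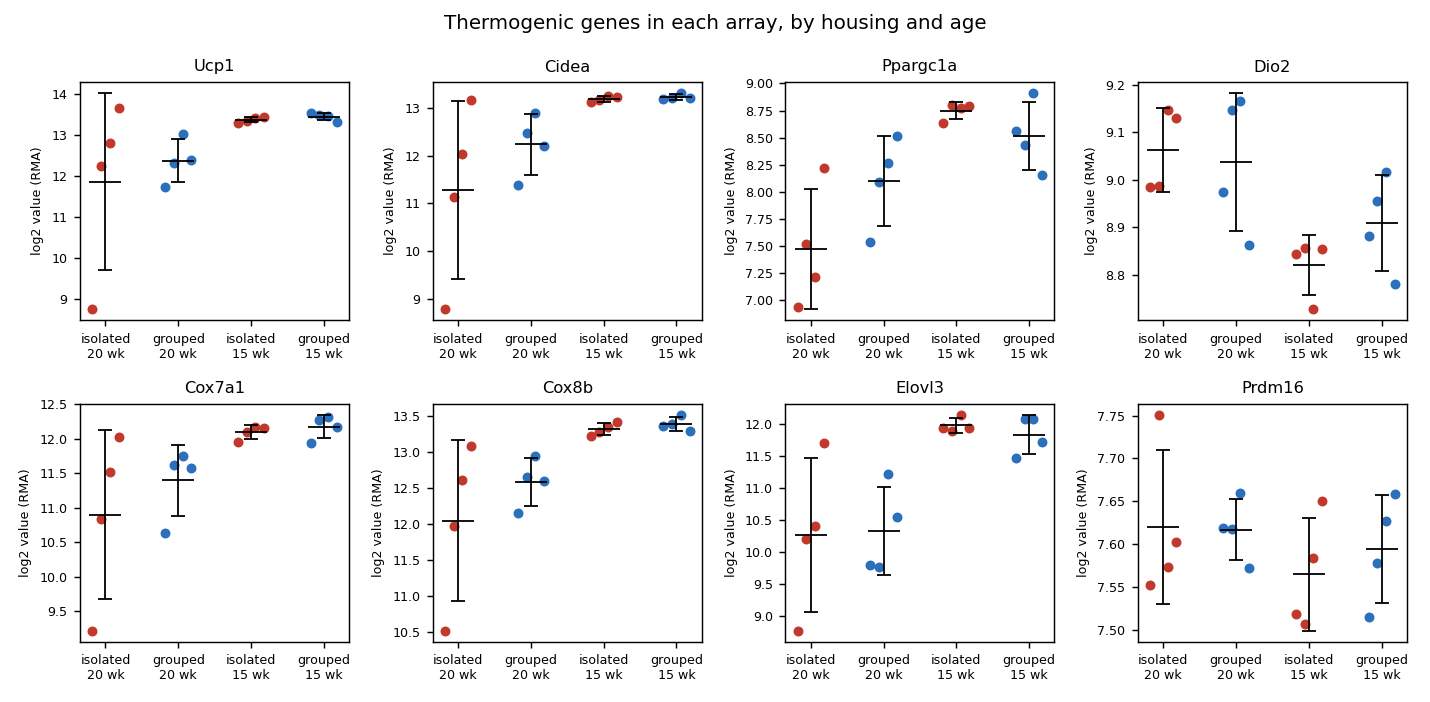
Each panel plots the log2 value (RMA, y axis) of a gene in each array, as points in replicate order, by group (x axis, isolated in red and grouped in blue), with the mean and SD (bars, n = 4). Ucp1 spans 4.91 over the 8 arrays of 20 weeks and 0.23 over those of 15 weeks, and Dio2 and Prdm16 have y axes that cover far smaller ranges than the other panels.

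Ppargc1a encodes a coactivator that turns on mitochondrial genes in brown fat, muscle and other tissues. At the brightest of its 5 probe sets it read 6.93, 7.52, 7.21 and 8.22 in isolated mice at 20 weeks, against 7.54, 8.09, 8.26 and 8.52 in grouped mice at 20 weeks. It read 8.64, 8.80, 8.77 and 8.79 in isolated mice at 15 weeks, against 8.56, 8.43, 8.91 and 8.15 in grouped mice at 15 weeks. The housings overlapped at both ages. Isolated arrays tended low at 20 weeks, with only replicate 4 above the lowest grouped array, and high at 15 weeks, with only grouped replicate 3 above every isolated array. The means were 7.47 ± 0.55 in isolated and 8.10 ± 0.41 in grouped mice at 20 weeks, and 8.75 ± 0.08 in isolated and 8.51 ± 0.32 in grouped mice at 15 weeks (SD, n = 4 each).

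Dio2 encodes the deiodinase that activates thyroid hormone inside brown fat cells and in other tissues, and its output feeds thermogenesis. The brightest of its 3 probe sets read 8.98, 8.99, 9.15 and 9.13 in isolated mice at 20 weeks, against 8.97, 9.15, 9.17 and 8.86 in grouped mice at 20 weeks. At 15 weeks it read 8.84, 8.86, 8.73 and 8.85 in isolated mice, against 8.88, 8.96, 9.02 and 8.78 in grouped mice. This probe set stayed within 0.30 over the 8 arrays of 20 weeks, where Ucp1 spanned 4.91. Isolated replicate 1 was not its lowest array.

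The other probe sets of Dio2 read differently. Probe set 1418937_at gave 8.52, 8.97, 8.87 and 8.97 in isolated mice at 20 weeks, against 7.96, 8.75, 8.65 and 7.60 in grouped mice at 20 weeks. Its 15-week values lay between 7.89 and 8.12 in isolated and between 7.99 and 8.15 in grouped mice. At 20 weeks 3 of 4 isolated arrays stood above every grouped array, with a difference of 0.60 (SE 0.24, adjusted p = 0.621 in limma with Benjamini-Hochberg adjustment over every probe set). Probe set 1426081_a_at differed by 0.35 (SE 0.11, adjusted p = 0.556), while the brightest differed by 0.02 (SE 0.08). The 3 probe sets thus gave different sizes of the same comparison, and neither of the larger ones passed.

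Prdm16 encodes a transcription regulator that sets and keeps the brown fat programme. The brightest of its 4 probe sets lay between 7.55 and 7.75 in isolated and between 7.57 and 7.66 in grouped mice at 20 weeks, and between 7.51 and 7.65 in isolated and between 7.51 and 7.66 in grouped mice at 15 weeks. No array stood apart there. Between 59.1% and 65.7% of the probe sets of an array were brighter, and detection calls were not used here, so a signal above background is not shown for this probe set. A dimmer one, 1440870_at, read 6.21, 6.36, 6.35 and 7.18 in isolated mice at 20 weeks, against 6.66, 7.22, 6.79 and 7.13 in grouped mice at 20 weeks. Its lowest array was isolated replicate 1, as for Ucp1, and its 15-week values lay between 7.31 and 7.58 in isolated and between 7.07 and 7.45 in grouped mice. The lower quartile of an array lay between 6.98 and 7.04 at 20 weeks, so the low readings of 1440870_at fell among the dimmest probe sets.

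Over the 8 arrays of 20 weeks, isolated replicate 1 was the lowest array for 7 of the 8 genes, all but Dio2. Isolated replicate 4 was the highest for 5, and grouped replicate 3 was the second highest for 7. Against its mean over these 8 arrays, Ucp1 deviated by -3.37 in isolated replicate 1 and by 1.54 in isolated replicate 4. Cidea deviated by -2.96 and 1.40 in the same arrays and Cox8b by -1.80 and 0.77. Replicate numbers are used here only to name the arrays.

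Pearson's r between Cidea and Cox8b over the 8 arrays of 20 weeks was 0.996, and Spearman's rho was 0.98. Without the 2 arrays farthest from the median of Cidea, r was 0.98. Ucp1 ran with Cox8b at r = 0.97 (rho 0.90), and at 0.78 without the 2 farthest arrays, which were isolated replicates 1 and 4. With Cox7a1 it ran at 0.96 (rho 0.90; 0.82 without the 2 farthest), with Cidea at 0.96 (rho 0.88; 0.72) and with Elovl3 at 0.89 (rho 0.90; 0.82). Ucp1 and Ppargc1a gave 0.67 (rho 0.60) and only 0.20 without those 2 arrays, so that relation rested on them. Ucp1 gave 0.43 with Dio2 (rho 0.52, and r 0.59 without those 2 arrays). With Prdm16 it gave 0.31 (rho 0.10, and r -0.11 without them). Dio2 and Cox8b gave 0.46 (rho 0.64), and 0.73 without grouped replicates 3 and 4. These are descriptions over 8 arrays of both housings, which share array and tissue make-up, and 28 pairs of members were computed.

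**Figure D2:**
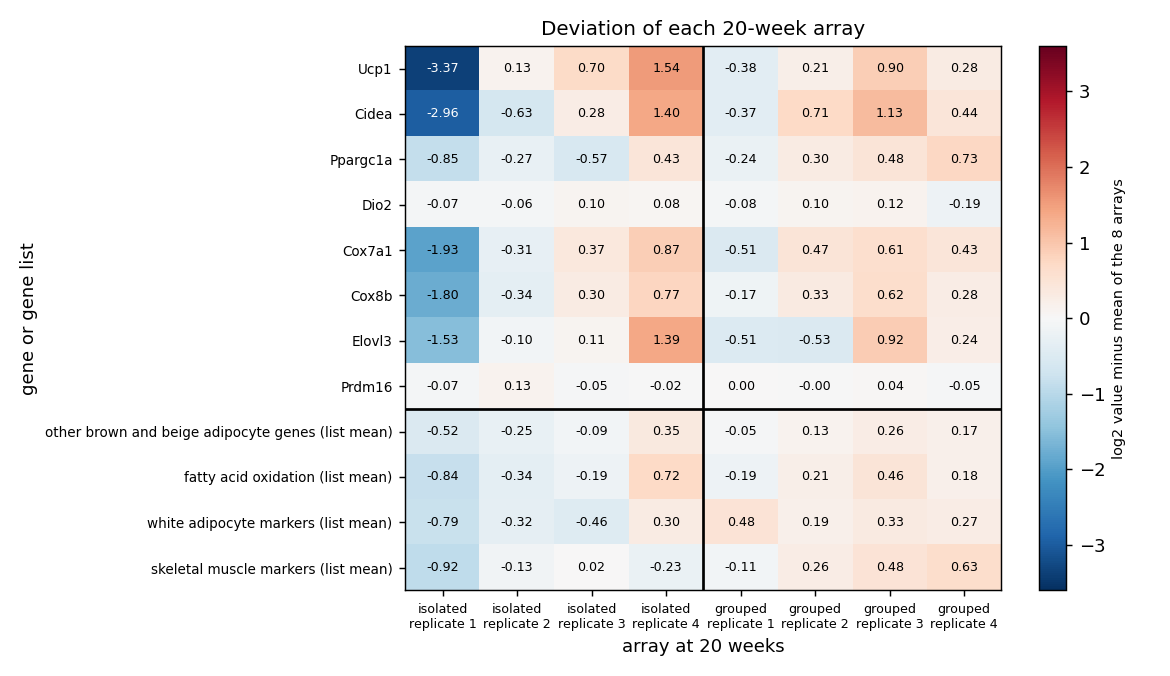
Each cell gives the log2 value of a gene, or the mean of a gene list, in an array of 20 weeks (x axis) minus its mean over the 8 arrays of that age, in colour and as a number. Isolated replicate 1 reads -3.37 for Ucp1 and -2.96 for Cidea, and the lists of other brown fat, fatty acid oxidation, white adipocyte and muscle genes are also lowest in that array, by 0.52 to 0.92.

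Genes most like each member were sought over all 16 arrays, after subtracting from each gene its mean at each age. For Ucp1 they were Cox8b (r = 0.97), Cidea (0.96) and Clca3a1 (0.95). Over the 20-week arrays alone these gave 0.97, 0.96 and 0.97, and over the 15-week arrays alone 0.74, 0.46 and 0.07. For Cidea they were Cox8b (0.99), Cox7a1 (0.98) and Acadm (0.97), and for Cox7a1 and Cox8b they were other members. For Elovl3 they were Itprid2 (0.95), Otop1 (0.94) and Axin2 (0.92). Ppargc1a was most like Gys1, Pdk2 and Lpin1, each at 0.93. Dio2 was most like Rasl10b (0.83), Erlec1 (0.83) and Chd9 (0.82), and Prdm16 was most like Vit (0.80), Spring1 (0.78) and Lpcat2b (0.78). None of the 3 genes closest to Ppargc1a, Dio2 or Prdm16 was a member. All these genes were picked as the highest over all other genes, and the size of r was not tested.

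Other marker lists moved over the same arrays. In whole gland RNA the white adipocyte list cannot be assigned to white adipocytes alone. The mean of 13 measured white adipocyte markers, of 15 listed, was 10.83, 11.30, 11.17 and 11.92 in isolated mice at 20 weeks, against 12.11, 11.81, 11.96 and 11.89 in grouped mice at 20 weeks. At 15 weeks it ranged over 12.24 to 12.45 in isolated and 12.35 to 12.80 in grouped mice. The white adipocyte mean was lowest in isolated replicate 1, as Ucp1 was, but highest at 20 weeks in grouped replicate 1, where Ucp1 was low. The part of fat content in the spread of the thermogenic genes was not tested, and in whole gland RNA fewer cells of a type and less RNA per cell cannot be told apart.

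Skeletal muscle also uses Cox7a1, Cox8b and Ppargc1a. The mean of 17 muscle markers was 11.82, 12.62, 12.77 and 12.52 in isolated mice at 20 weeks, against 12.64 to 13.37 in grouped mice at 20 weeks. At 15 weeks it ranged over 12.70 to 13.33 in isolated and 12.50 to 12.88 in grouped mice. The muscle mean too was lowest in isolated replicate 1, but isolated replicate 4, highest for Ucp1, was second lowest for muscle. The mean of 10 milk and secretory epithelium genes, a group relevant to Cidea, ranged over 8.67 to 9.23 in isolated and 9.57 to 9.63 in grouped mice at 20 weeks, without overlap. That mean leaned on Csn2, which differed by -4.26 between isolated and grouped mice. The median difference of the list was -0.22, with 8 genes below and 2 above 0. The part of muscle and of secretory epithelium in these results was not tested.

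The first question was whether solitary housing, which raises heat loss, went with another level of thermogenic genes. At 20 weeks, each at its brightest probe set, 0 of the 8 members passed the test (limma with Benjamini-Hochberg adjustment over 18193 genes, threshold 0.05), against 0.0110% of all genes. There 0 reached an unadjusted p under 0.05, against 8.49% of all genes. Tested over every probe set, Dio2 reached an unadjusted p of 0.0324 at 1418937_at and 0.00999 at 1426081_a_at without passing. The probe sets of Ppargc1a are given below. The isolated and grouped arrays overlapped for every member, while 4.20% of all genes did not overlap. The median difference, isolated minus grouped, was -0.50 over the members and -0.01 over all genes, with 6 of the 8 below 0, against 53.3% of all genes.

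Ucp1 differed by -0.50 at 20 weeks (SE 0.90, 95% interval -2.52 to 1.52, adjusted p = 0.879 in limma). Cidea differed by -0.96 (SE 0.79, interval -2.74 to 0.82, adjusted p = 0.729) and Ppargc1a by -0.63 (SE 0.28, interval -1.27 to 0.003, unadjusted p = 0.0509, adjusted p = 0.584). Cox8b differed by -0.53 (SE 0.47, adjusted p = 0.744) and Cox7a1 by -0.50 (SE 0.54, adjusted p = 0.795). Elovl3 differed by -0.06 (SE 0.56, adjusted p = 0.978), Dio2 by 0.02 (SE 0.08, adjusted p = 0.939) and Prdm16 by 0.003 (SE 0.06, adjusted p = 0.992). With intervals that run from a loss to a gain of over 1 on the log2 scale for Ucp1 and Elovl3, 4 arrays a group leave differences of that size undecided. The negative values leaned on 1 array: without isolated replicate 1, Ucp1 differed by 0.53 (SE 0.36, adjusted p = 0.754), Elovl3 by 0.44, Cox7a1 by 0.07, Cox8b by -0.02 and Cidea by -0.13, while Ppargc1a differed by -0.45 (adjusted p = 0.730).

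At 15 weeks, each at its brightest probe set, 0 of 8 members passed in limma, against 0.0440% of all genes. There 0 reached an unadjusted p under 0.05, against 9.70%. The housings overlapped for all 8, while 5.69% of all genes did not. Tested over every probe set, Ppargc1a reached an unadjusted p of 0.00378 at 1456395_at and 0.0287 at 1437751_at. Prdm16 reached 0.0427 at 1429308_at, where the isolated arrays lay above all grouped ones (difference 0.12). Adjusted p of these lay between 0.359 and 0.508. At the brightest probe sets the intervals were narrow. Ucp1 differed by -0.08 (SE 0.08, 95% interval -0.24 to 0.09, adjusted p = 0.735) and Cidea by -0.04 (SE 0.07, interval -0.19 to 0.11, adjusted p = 0.837). Cox7a1 differed by -0.08, Cox8b by -0.07, Dio2 by -0.09 and Prdm16 by -0.03, with adjusted p between 0.648 and 0.865. The values of Ppargc1a (0.24, SE 0.13, adjusted p = 0.565) and Elovl3 (0.14, SE 0.13, adjusted p = 0.709) were positive. The member median was -0.06, with 6 of 8 below 0, against -0.01 over all genes, of which 54.0% were below 0.

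**Figure D3:**
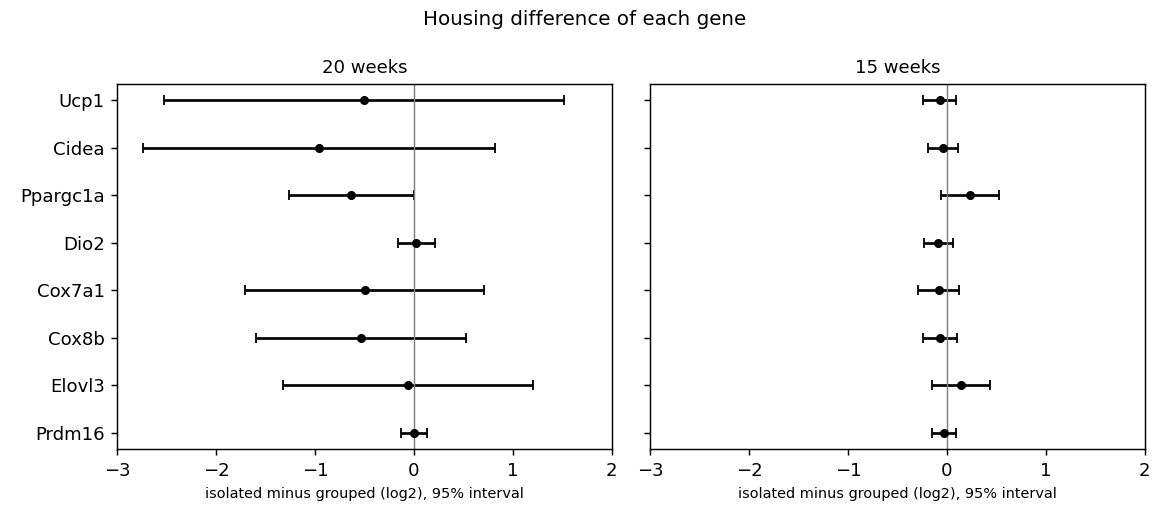
Points give the difference between isolated and grouped mice (x axis, log2, isolated minus grouped) for each gene (y axis) at 20 weeks (left) and 15 weeks (right), with 95% intervals from limma on 8 arrays each. The interval of Ucp1 runs from -2.52 to 1.52 at 20 weeks and from -0.24 to 0.09 at 15 weeks, and none of the 8 genes passed at either age.

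Whether the housing difference itself changed with age was tested on all 16 arrays. No member passed the interaction test in limma, against 0.0110% of all genes. Ppargc1a gave -0.87 (SE 0.34, 95% interval -1.58 to -0.15, unadjusted p = 0.0203, adjusted p = 0.307). With each gene at its brightest probe set, it was the 1 member with an unadjusted p under 0.05. That mark was reached by 12.7% of all genes. The other members had adjusted p between 0.698 and 0.925 there, with Cidea at -0.92, Cox8b at -0.47, Ucp1 at -0.43, Cox7a1 at -0.41, Elovl3 at -0.20, Dio2 at 0.11 and Prdm16 at 0.03. Tested over every probe set in limma, Dio2 gave 0.66 at 1418937_at (unadjusted p = 0.0238, adjusted p = 0.347). It gave 0.35 at 1426081_a_at (unadjusted p = 0.0205, adjusted p = 0.335). Prdm16 gave -0.60 at 1440870_at (unadjusted p = 0.0245, adjusted p = 0.351). Without isolated replicate 1 at 20 weeks Ucp1 gave 0.61.

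All 5 probe sets of Ppargc1a had the same pair of signs. They lay below 0 at 20 weeks, from -0.64 to -0.46, and above 0 at 15 weeks, from 0.13 to 0.36. At 20 weeks the unadjusted p of each lay between 0.00543 and 0.0455 when every probe set was tested. Adjusted over all of them, p lay between 0.506 and 0.630, so none passed. For the interaction the adjusted p lay between 0.185 and 0.326. Probe sets of a gene read the same RNA and are not replicates.

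**Figure D4:**
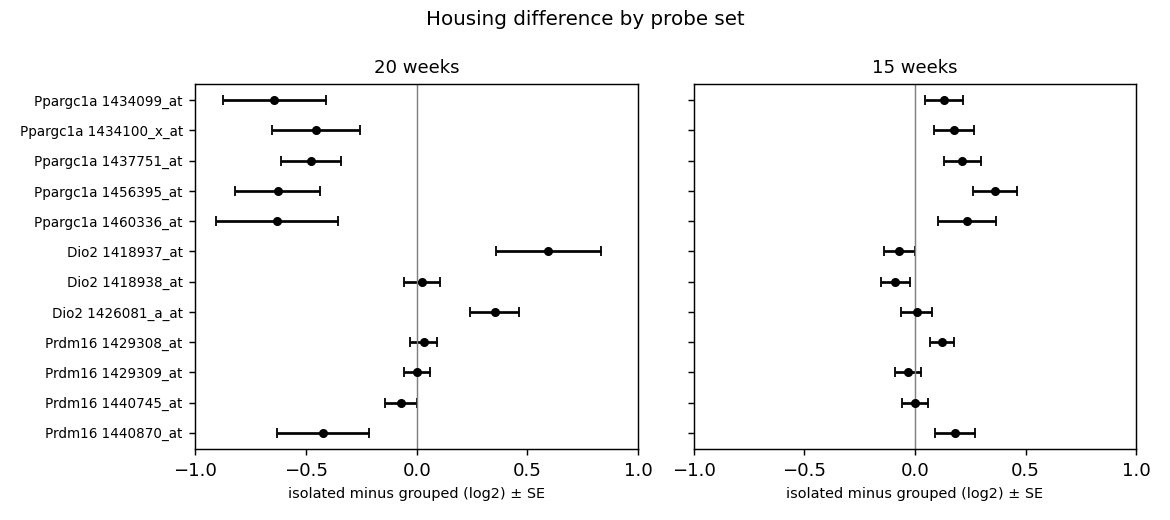
Points give the difference between isolated and grouped mice (x axis, log2, isolated minus grouped) for each probe set of Ppargc1a, Dio2 and Prdm16 (y axis), with SE, at 20 weeks (left) and 15 weeks (right). The 5 probe sets of Ppargc1a lie between -0.64 and -0.46 at 20 weeks and between 0.13 and 0.36 at 15 weeks, while those of Dio2 spread from 0.02 to 0.60 and those of Prdm16 from -0.42 to 0.03 at 20 weeks.

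The second comparison set 20 weeks against 15 weeks. In isolated mice 6 of 8 members were lower at 20 weeks in limma, against 50.2% of all genes called in either direction and 23.8% called lower. Elovl3 fell by 1.93 on the log2 scale, or 3.80-fold (SE 0.48, adjusted p = 0.00816), and Ppargc1a by 1.50, or 2.83-fold (SE 0.23, adjusted p = 0.000642). Cidea fell by 2.12 (SE 0.73, adjusted p = 0.0352), Cox8b by 1.49 (SE 0.44, adjusted p = 0.0190) and Cox7a1 by 1.42 (SE 0.48, adjusted p = 0.0341). Prdm16 fell by 0.17 (SE 0.06, adjusted p = 0.0394). Ucp1 differed by -1.73 (SE 0.85, 95% interval -3.64 to 0.17, adjusted p = 0.116) and Dio2 by 0.02 (SE 0.06, adjusted p = 0.818). The count rested on the full set of arrays: without any 1 of the 15-week arrays only Ppargc1a, Elovl3 and Cox8b passed, 3 of 8, and Cidea, Cox7a1 and Prdm16 did not.

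For Dio2 the age result depended on the probe set. When every probe set was tested in limma, 1418937_at rose by 0.59 in isolated mice (SE 0.10, adjusted p = 0.00105), and its 20-week arrays lay above all 15-week arrays. Probe set 1426081_a_at rose by 0.23 there (SE 0.08, adjusted p = 0.0447). In grouped mice the same probe sets differed by -0.08 (adjusted p = 0.788) and -0.13 (adjusted p = 0.334).

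In grouped mice 7 of 8 members were lower at 20 weeks in limma, against 37.3% of all genes called and 19.4% called lower. Ucp1 fell by 1.31, or 2.49-fold (SE 0.22, adjusted p = 0.00202). Elovl3 fell by 1.73, or 3.32-fold (SE 0.30, adjusted p = 0.00258), Cidea by 1.22 (SE 0.26, adjusted p = 0.00593) and Cox8b by 1.04 (SE 0.15, adjusted p = 0.00102). Cox7a1 fell by 1.01 (SE 0.22, adjusted p = 0.00698), Ppargc1a by 0.64 (SE 0.21, adjusted p = 0.0386) and Prdm16 by 0.21 (SE 0.05, adjusted p = 0.0113). Dio2 differed by -0.10 (SE 0.09, adjusted p = 0.363). The call of Ppargc1a in grouped mice was lost without any of 5 single arrays (adjusted p between 0.0691 and 0.0928) and on the values as deposited (-0.41, adjusted p = 0.109), and its probe set 1437751_at differed by 0.22, in the other direction (adjusted p = 0.146). That Ucp1 passed in grouped and not in isolated mice does not show that the housings differed, since the interaction for Ucp1 did not pass.

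After centring, every 20-week array lay below every 15-week array for 5 members in isolated mice, against 22.1% of all genes, and for 6 members in grouped mice, against 19.2%. Cidea, Cox7a1, Cox8b and Elovl3 were among them in both housings, with Ppargc1a in isolated mice and Ucp1 and Prdm16 in grouped mice. For Ucp1 in isolated mice, replicate 4 at 20 weeks kept the ages from parting. On the values as deposited, Prdm16 at its brightest probe set differed by 0.06 in isolated and 0.02 in grouped mice and did not pass. Its lower value there came with the centring. Probe set 1440870_at differed by -1.11 in isolated mice after centring (adjusted p = 0.000877 in limma over every probe set). In grouped mice it differed by -0.51 (adjusted p = 0.0128). Its means as deposited were 6.53 at 20 and 7.41 at 15 weeks in isolated mice, and 6.95 and 7.23 in grouped mice. For 1429308_at the grouped means were 6.08 and 6.03, and for 1440745_at 7.46 and 7.41. Isolated replicate 1 weighed on the sizes: without it Ucp1 fell by 0.70 (adjusted p = 0.0481), Cidea by 1.30, Cox7a1 by 0.86 and Cox8b by 0.99 in isolated mice.

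**Figure D5:**
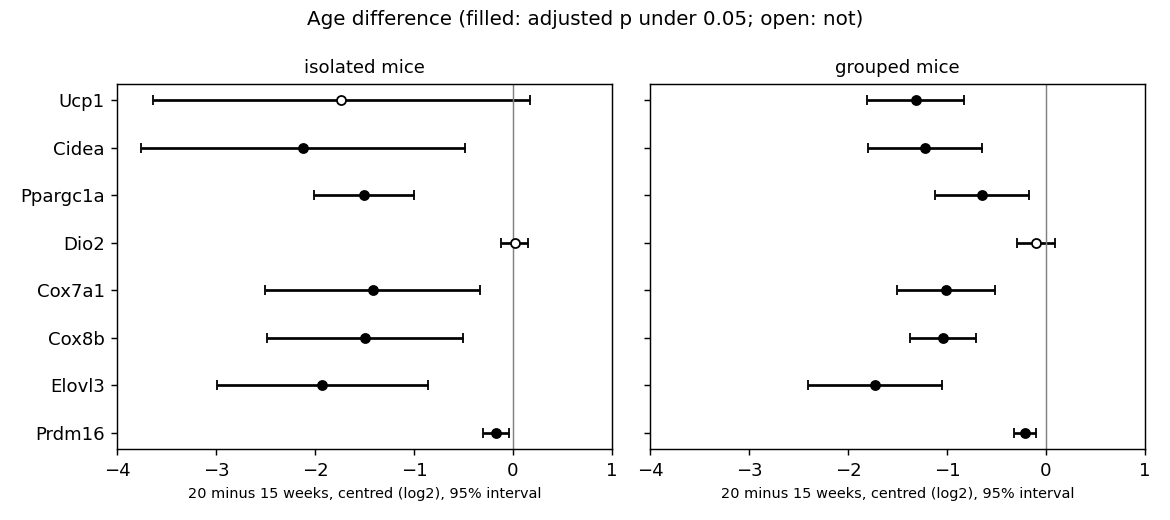
Points give the difference between 20 and 15 weeks (x axis, log2, 20 minus 15 weeks, each array centred on its median) for each gene (y axis) in isolated (left) and grouped mice (right), with 95% intervals from limma on 8 arrays each. Filled points passed an adjusted p of 0.05: 6 genes in isolated and 7 in grouped mice, with Dio2, at its brightest probe set, near 0 in both and Ucp1 not passing in isolated mice.

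The genes listed as white adipocyte markers were lower at 20 weeks as well, and they cannot be assigned to white fat alone. Of 13 measured white adipocyte markers 12 passed as lower in isolated mice (median -1.54 in the centred values) and 13 in grouped mice (median -0.79). Of 17 muscle markers 14 passed as lower in isolated mice (median -0.77), whereas in grouped mice 0 passed as lower and 2 as higher (median -0.13). In grouped mice the members' median was -1.03 and in isolated mice -1.50, against 0.01 over all genes in isolated and -0.002 in grouped mice. Other tissue lists are given beside the shares of all genes. Of all genes, 26.5% were called higher and 23.8% lower in isolated mice, and 17.8% and 19.4% in grouped mice. Some of the counts below lie near or under these shares. Of 10 milk and secretory epithelium genes, 7 passed as lower in isolated mice (median -0.73) and 6 in grouped mice (median -0.68), with list means at 15 weeks of 9.95 to 10.03 in isolated and 9.82 to 10.51 in grouped mice. Of 10 luminal markers, 3 passed as higher and 4 as lower in isolated mice (median 0.10), and 4 as higher and 2 as lower in grouped mice (median 0.27), where Krt8, Krt18, Epcam and Cldn7 were the higher ones. Of 7 measured fibroblast and matrix genes, 1 passed as higher in isolated mice (median -0.13), whereas 3, Dcn, Lum and Pdgfra, passed as lower in grouped mice (median -0.48). Of 9 measured macrophage markers, 3 passed as higher in isolated mice (median 0.34) and 3 as lower in grouped mice (median -0.53). Of the 7 sebaceous and hair follicle genes, 1 passed as higher and 1 as lower in isolated mice (median 0.08), and 1 as higher and 3 as lower in grouped mice (median -0.16). The part of tissue make-up, and of any batch that went with age, in the age difference of the thermogenic genes was not tested.

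With housing, 0 genes of these tissue lists passed at 15 weeks, and at 20 weeks only the caseins Csn2 (-4.26, adjusted p = 0.00671) and Csn1s1 (-0.94, adjusted p = 0.0163) of the milk list did. Unadjusted p in limma was under 0.05 at 20 weeks for 9 of 13 white adipocyte and 13 of 17 muscle genes, against 8.49% of all genes. All genes of both lists were below 0, and the other lists had 0 to 4 such p. At 15 weeks 8 of 9 macrophage genes reached it, all 9 below 0, against 9.70% of all genes, and the other lists had 1 to 3. The list medians at 20 weeks, isolated minus grouped, were -0.65 for white adipocyte, -0.59 for muscle, -0.22 for milk, -0.11 for luminal, 0.05 for sebaceous, 0.32 for fibroblast and 0.50 for macrophage genes. At 15 weeks they lay between -0.40 for macrophage and 0.13 for muscle genes.

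A wider list of 32 brown and beige adipocyte genes, of which 29 were measured, holds the regulators, surface marks and secreted factors of these cells. At 20 weeks 0 passed for housing, 25 of 29 were below 0 and the median was -0.23. The smallest p in that list belonged to Cited1, a mark of beige cells (-0.36, adjusted p = 0.495), Nrg4, a growth factor secreted by brown fat (-0.62, adjusted p = 0.567), and Mtus1 (-0.32, adjusted p = 0.577). At 15 weeks 0 passed, 18 of 29 were above 0 and the median was 0.06. There the smallest p belonged to Acot11, a thioesterase induced by cold (0.37, adjusted p = 0.280), P2rx5, a surface mark of brown adipocytes (0.31, adjusted p = 0.411), and Irf4, a transcription factor of thermogenic genes (-0.33, adjusted p = 0.411).

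The wider list was lower at 20 than at 15 weeks. In isolated mice 22 of 29 passed as lower and 0 as higher, with a median of -0.73. Nrg4 fell by 1.70, Lhx8, a mark of classical brown fat, by 0.73 and Tmem26, a surface mark of beige cells, by 0.50. In grouped mice 20 of 29 passed as lower and 0 as higher, with a median of -0.56. Lhx8 fell by 0.97, Irf4 by 0.91 and Slc36a2, an amino acid transporter of brown adipocytes, by 0.85. The mean of the 29 genes was 8.15, 8.41, 8.58 and 9.02 in isolated mice at 20 weeks, against 8.61, 8.80, 8.92 and 8.84 in grouped mice at 20 weeks, so isolated replicates 1 and 4 bounded this list as they bounded Ucp1.

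Fatty acid oxidation feeds thermogenesis, and its 10 genes were lower at 20 weeks in both housings. At 20 weeks 0 of 10 passed for housing and all 10 were below 0, with a median of -0.31. Against 15 weeks 10 of 10 passed as lower in isolated mice (median -1.23) and 10 of 10 in grouped mice (median -0.90). Slc25a20, the carnitine carrier, fell by 1.37 in isolated and by 1.11 in grouped mice, and Cpt2, a carnitine palmitoyltransferase, fell by 1.49 and 0.97. The mean of the 10 genes was 10.87 in isolated replicate 1 and 12.43 in isolated replicate 4 at 20 weeks, against 11.52 to 12.17 in grouped mice.

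Close relatives of the members were read beside them. Ucp3, the uncoupling protein of skeletal muscle, differed by -0.30 with housing at 20 weeks (adjusted p = 0.643) and fell by 1.42 in isolated and 1.00 in grouped mice between the ages. The adenine nucleotide carriers Slc25a4 and Slc25a5 differed by -0.35 and 0.03 with housing at 20 weeks. Between ages Slc25a4 fell by 0.58 in isolated mice and differed by -0.16 in grouped mice (adjusted p = 0.352), while Slc25a5 differed by -0.18 in isolated mice (adjusted p = 0.0822) and fell by 0.35 in grouped mice. The widely expressed forms Cox7a2 and Cox8a, their relative Cox7a2l and the testis form Cox8c gave a median of -0.06 with housing at 20 weeks. Between ages their medians were -0.31 in isolated and -0.32 in grouped mice, and Cox8a fell by 0.63 and 0.61, Cox7a2 by 0.30 and 0.35 and Cox8c by 0.31 and 0.26, while Cox7a2l differed by 0.01 in isolated mice (adjusted p = 0.868) and fell by 0.28 in grouped mice. The mean of these 4 oxidase genes ranged over 11.95 to 12.14 in isolated and 11.97 to 12.12 in grouped mice at 20 weeks, without the wide spread of Cox7a1 and Cox8b. Of 7 measured cytochrome c oxidase subunits found in most tissues, 6 passed as lower between ages in both housings, with medians of -0.42 in isolated and -0.37 in grouped mice. The other one, Cox7c, passed as higher in isolated mice (0.53, adjusted p = 0.00138) and differed by 0.19 in grouped mice (adjusted p = 0.222). As deposited, the mean of these 7 subunits was 12.68 at 20 and 12.80 at 15 weeks in isolated mice, and 12.78 and 12.86 in grouped mice. That of the 4 oxidase genes above was 12.03 and 12.12 in isolated, and 12.06 and 12.21 in grouped mice. Centring took 0.22 in isolated and 0.23 in grouped mice off each age difference. The smaller falls, such as those of Cox8c, came largely with it.

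Among the 6 other elongases, 4 passed as higher and 2 as lower at 20 weeks in isolated mice, and 3 as higher and 2 as lower in grouped mice, where 26.5% of all genes passed as higher in isolated and 17.8% in grouped mice. The list medians were 0.25 in isolated and 0.14 in grouped mice. Elovl4 rose by 1.10 in isolated and 1.01 in grouped mice, Elovl7 by 0.56 in both, and Elovl2 by 0.18 and 0.16. Elovl1 rose by 0.31 in isolated mice and differed by 0.12 in grouped mice (adjusted p = 0.198), and Elovl5 fell by 0.81 and 0.50. With housing at 20 weeks these 5 differed by -0.15 (Elovl5) to 0.21 (Elovl4), with adjusted p of 0.610 for Elovl2 and more for the others. Elovl6, a lipogenic elongase, fell by 2.09 and 0.80, and with housing it differed by -0.73 at 20 weeks and 0.57 at 15 weeks (interaction -1.30, adjusted p = 0.214), so it had the same pair of signs as Ppargc1a without passing. Cidec, the relative of Cidea in white fat, differed by -0.83 with housing at 20 weeks (adjusted p = 0.592) and fell by 1.98 in isolated and 1.16 in grouped mice between ages. Cideb, another relative, differed by -0.03 with housing at 20 weeks (adjusted p = 0.901), fell by 0.26 in isolated mice between ages and differed by -0.12 in grouped mice (adjusted p = 0.297). That fall of Cideb is close to the 0.22 that centring took off in isolated mice. Mecom, the closest relative of Prdm16, differed by -0.26 with housing at 20 weeks (adjusted p = 0.578), fell by 0.45 in isolated mice between ages and differed by -0.04 in grouped mice (adjusted p = 0.774).

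Genes that carry the adrenergic and thyroid signals were read for 7 of 12 listed, and the others were not analysed here. None passed for housing at either age, with medians of -0.06 at 20 weeks and -0.05 at 15 weeks. Between ages 4 passed as lower and 1 as higher in isolated mice, and 3 as lower in grouped mice, with medians of -0.25 and -0.18. Centring took 0.22 and 0.23 off these differences. Prkar2b, a protein kinase A subunit of fat, fell by 1.92 in isolated and 1.41 in grouped mice, Pde3b, a phosphodiesterase that ends the cyclic AMP signal, fell by 1.18 and 0.94, and Thra, a thyroid hormone receptor, fell by 0.47 and 0.40.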

How the data were processed

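Whole mammary gland RNA was read on 16 Affymetrix mouse arrays, 4 in each of 4 groups taken from the labels. The deposited values are log2 levels that the authors made with RMA in affy, per the submitters' processing notes (version not given in the sources used here). RMA corrects background, aligns the distributions of the arrays and gives 1 value a probe set. The table had 0 missing values. Arrays have no read depth, and their number limits the precision. Names came from the platform's gene table: of 45101 probe sets 64 were controls, 34945 carried 1 symbol, 932 several and 9211 were not listed, and 34741 matched RefSeq by Entrez identifier. A gene was tested at its brightest single-symbol probe set, by the mean of all 16 arrays, which gave 18193 genes.

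The test was limma 3.58.1 in R 4.3.3 (lmFit, then eBayes with intensity trend). P-values were adjusted by Benjamini-Hochberg over those genes, at a threshold of 0.05. A comparison used its own 8 arrays and the interaction all 16. For age, arrays were centred on their medians first. The fits were tested on simulated data. Same-numbered arrays deviated together in some pairs and not in others. The main fits did not use the numbers as pairs, and whether they pair arrays is not settled. No 2 arrays of a group were alike (lowest SD of a difference 0.115).

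All 8 members are named in every comparison. Gene lists are described by counts and medians. The 3 genes with the smallest p are named for the wider brown fat list, and the 3 genes most like each member. All measured relatives in the isoform lists are named. Genes named in the other lists were chosen after their values were seen. The members and lists were chosen with earlier results of these data known. The alternatives were quantile normalization, a filter at the 40th percentile of gene means, the probe set of largest variance, every probe set, no trend, a replicate block, all 16 arrays, uncentred values for age, and each array left out in turn.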

Additional observations from a re-analysis of the deposited data

Results flagged for a closer look

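In 6 of 68 groups of 4 arrays, 1 array stood far from the others by Dixon's test at its 95% critical value. Chance gives about 1 such group in 20. Cox7a1 read 10.6 in grouped replicate 1 at 20 weeks, while the other grouped arrays of that age lay between 11.58 and 11.75. Ppargc1a read 8.64 in isolated replicate 1 at 15 weeks, below the 8.77 to 8.80 of its group, and Dio2 read 8.73 in isolated replicate 3 at 15 weeks, below 8.84 to 8.86. Those gaps are small on the log2 scale. For Prdm16, probe set 1440870_at read 7.18 in isolated replicate 4 at 20 weeks, above 6.21 to 6.36 in the other isolated arrays of that age. Its probe set 1429308_at read 5.98 in isolated replicate 1 at 20 weeks and 5.97 in grouped replicate 1 at 15 weeks, each the lowest of its group and below the lower quartile of its array. Isolated replicate 1 at 20 weeks was not singled out for Ucp1, Cidea, Cox7a1, Cox8b or Elovl3, because the other isolated arrays were themselves far apart.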

How the results depend on the processing

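No member passed for housing at 20 weeks, housing at 15 weeks or the interaction under any alternative run, with adjusted p of Ppargc1a between 0.0776 and 0.883 over these comparisons. With the replicate block, 0 members passed in each of these, 5 passed between ages in isolated and 7 in grouped mice, and over all genes 17 passed for housing at 15 weeks, 3 at 20 weeks, 8 for the interaction, 9264 for age in isolated and 6039 in grouped mice. Same-numbered arrays deviated together with correlations between -0.20 and 0.49. For housing at 20 weeks the highest was 0.49 for same-numbered arrays and 0.26 for others. For age in grouped mice it was 0.23 and 0.35. Whether the numbers pair arrays is not settled. For housing at 15 weeks, quantile normalization gave 0.0201 for Ucp1, 0.0449 for Cidea and 0.0221 for Cox8b, and other probe sets gave 0.00763 for Dio2 and 0.12, 0.000582 and 0.18 for Prdm16. For Prdm16 other probe sets gave -0.0716 and -0.42 at 20 weeks and -0.0897, -0.0722 and -0.60 for the interaction. Between ages, values as deposited gave 0.0550 for Prdm16 in isolated mice, and 0.0226 for Prdm16 and 0.13 for Dio2 in grouped mice, and Ppargc1a probe set 1437751_at gave 0.22 in grouped mice. On those values 5 members passed in each housing, Cox7a1 (-1.19, adjusted p = 0.0520) and Prdm16 missing in isolated mice and Ppargc1a (-0.41, adjusted p = 0.109) and Prdm16 in grouped mice, while Dio2 passed as higher in isolated mice (0.24, adjusted p = 0.00665). The share of called genes that were higher was 86.0% as deposited, 61.8% with the probe set of largest variance and 52.7% as reported in isolated mice, and 89.7%, 58.9% and 47.8% in grouped mice. Leaving out 1 array in turn gave, at 20 weeks, -1.10 to 0.53 for Ucp1, -0.87 to 0.0653 for Cox7a1, -0.54 to 0.44 for Elovl3, -0.0337 to 0.0672 for Dio2 and -0.0410 to 0.0251 for Prdm16. For the interaction it gave -1.03 to 0.61 for Ucp1, -0.79 to 0.15 for Cox7a1, -0.81 to 0.0445 for Cox8b, -0.68 to 0.30 for Elovl3 and -0.0113 to 0.0609 for Prdm16, and for age in isolated mice -0.0117 to 0.0430 for Dio2. Between ages 3 to 6 members passed in isolated mice and 6 to 7 in grouped mice. In isolated mice the calls of Cidea and Cox7a1 were lost without any 15-week array or replicate 2 of 20 weeks (adjusted p between 0.0617 and 0.0764), and that of Prdm16 without any 15-week array or replicates 1, 3 or 4 of 20 weeks. Ucp1 passed without replicate 1 (-0.70) or 4 (-2.33) of 20 weeks. In grouped mice the call of Ppargc1a was lost without replicates 1, 2 or 3 of 15 weeks or 1 or 2 of 20 weeks (adjusted p between 0.0691 and 0.0928). Over all genes, 8 passed for housing at 15 weeks, 4 over every probe set, 2 with all 16 arrays and 0 to 31 without 1 array. At 20 weeks 2 passed, with 4, 8 and 0 to 136 in the same settings. For the interaction 2 passed, 1 with the filter or without the trend and 0 to 139 without 1 array. For age, 9140 passed in isolated mice and 22467 over every probe set, and in grouped mice 6777, 17070 over every probe set and 11362 as deposited. The cause of these shifts was not tested.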
